A study of Mus musculus with 4 samples.

Results

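The endogenous opioid system was followed through 7 genes, which were listed by symbol, with earlier results of these data known. They are the receptor genes Oprm1, Oprd1, Oprk1 and Oprl1 and the peptide precursor genes Penk, Pdyn and Pnoc, 7 of the 56748 genes in the count tables. All 7 were detected, with 4263 unique transcripts (UMIs) for Oprd1, 3850 for Oprm1, 643 for Oprl1, 483 for Pnoc, 370 for Oprk1, 321 for Penk and 118 for Pdyn over all nuclei kept. Each was described by neuron class in 8 pools of hippocampal nuclei, and by repeated social defeat (RSD, here stress) against control in 4 pairs of pools.

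Every pool held nuclei of 3 male mice, and each condition was 1 pool. In the diet experiment, C57BL/6 mice bought at 5 to 7 weeks of age ate vehicle or PLX5622 chow from 7 days before defeat; PLX5622 blocks the CSF1 receptor and depletes microglia. The pools were Con-Veh, Con-PLX, Stress-Veh and Stress-PLX. In the genotype experiment, mice were bred in house and were IL-1R1+/+ without Cre (Con-WT and Stress-WT) or nIL-1R1-/- (Con-KO and Stress-KO), where Cre driven from the Vglut2 locus (Slc17a6) removes Il1r1, so the deletion reaches only cells with a history of that promoter. Stress was a CD-1 male aggressor in the home cage for 2 h on each of 6 nights, and nuclei were taken 14 h after the last defeat. The 4 pairs share a diet or a genotype: vehicle, PLX5622, IL-1R1+/+ and nIL-1R1-/-. Because mice were pooled, the spread given below is between pools and between experiments, not between mice.

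Opioid peptides are cut from larger precursors at pairs of basic residues. Penk encodes the enkephalins, which bind the delta receptor (Oprd1) and the mu receptor (Oprm1); Pdyn encodes the dynorphins, the main ligands of the kappa receptor (Oprk1); and Pnoc encodes nociceptin, the ligand of the related receptor Oprl1. All of these receptors couple to inhibitory Gi/o proteins, which lower cyclic AMP, open potassium channels and reduce transmitter release. In the hippocampus, interneurons are classically known for mu and delta receptors, and the mossy fibre pathway of dentate granule cells for dynorphin and enkephalin.

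The precursors show their kinship at the peptide core itself, so the coding windows are given here, read from the mm39 genome on the minus strand with the 4 core codons in capitals and the fifth codon just after them. Penk holds 7 copies in exon 2 of 2, Pdyn holds 3 in exon 4 of 4 and Pnoc holds 1 in exon 3 of 4.
Penk copy 1, chr4:4134328-4134354: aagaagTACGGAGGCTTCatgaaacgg
Penk copy 6, chr4:4133935-4133961: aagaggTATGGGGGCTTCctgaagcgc
Pdyn copy 1, chr2:129530152-129530178: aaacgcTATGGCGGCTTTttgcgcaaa
Pdyn copy 2, chr2:129530044-129530070: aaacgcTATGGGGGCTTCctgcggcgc
Pnoc, chr14:65642321-65642347: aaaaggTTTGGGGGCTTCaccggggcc
The Penk and Pdyn cores all begin with a tyrosine codon, whereas the Pnoc core begins with phenylalanine. The fifth codon is methionine, as in Met-enkephalin, in 6 of 7 Penk copies and leucine, as in Leu-enkephalin, in the other. It is leucine in 3 of 3 Pdyn copies and threonine in Pnoc. In Penk copies 4 and 7, both with methionine, no pair of basic codons follows the fifth. A pair of lysine or arginine codons stands just before the core in 7 of 7, 3 of 3 and 1 of 1 copies, and just after the fifth codon in 5, 3 and 0.

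The 8 pools gave 56834 nuclei after removal of 516 with over 20% mitochondrial UMIs, and no barcode was shared between pools. Median UMIs per nucleus ran from 598 to 5012, with both PLX5622 pools the shallowest at 598 and 628. Depth also differed within pairs, at 2563 in Con-Veh against 1325.5 in Stress-Veh and 5012 in Con-KO against 2580 in Stress-KO. Con-WT and Stress-WT were close, at 3098.5 and 3218.5. Nuclei were clustered without the 7 genes and classes were named from marker genes; a class is called "-like" for that reason. Of all nuclei, 31711 fell in 10 neuronal classes with at least 10 nuclei in every pool, and 18747 (33.0%) stayed unnamed. Unnamed nuclei held 22.8% (Pnoc) to 55.4% (Oprk1) of the UMIs of the 7 genes. The unnamed share was 23.1, 45.9, 34.2 and 21.5% in Con-Veh, Con-PLX, Con-WT and Con-KO. In the matching stress pools it was 36.4, 45.3, 25.9 and 28.9%. Il1r1, the deleted gene, stood at 61.8 and 29.9 CPM (UMIs of the gene divided by all UMIs of the class in a pool, times 1e6) in dentate granule-like nuclei of Con-WT and Stress-WT and at 11.3 and 9.11 CPM in Con-KO and Stress-KO. The 199 microglia-like nuclei held 0 from either PLX5622 pool.

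Delta and mu receptor genes had their highest means in inhibitory neurons. Oprd1 was highest in Lhx6-like interneurons, the Sst and Pvalb lineage, at 131 ± 23.6 CPM (SD, n = 8 pools), and Oprm1 in neurogliaform-like interneurons at 71.0 ± 19.4 CPM. That lead of Oprm1 over Lhx6-like nuclei held in only 5 of 8 pools, so its leading class was not resolved. Pnoc was also highest in neurogliaform-like nuclei, at 32.4 ± 13.2 CPM, and Penk in Adarb2 Vip-like interneurons, at 7.19 ± 4.73 CPM. Pdyn was highest in dentate granule-like nuclei, at 1.95 ± 1.10 CPM, and Oprk1 in Lhx6-like nuclei, at 4.66 ± 3.56 CPM. Neighbours in the order of the 10 classes were compared within pools by two-sided exact sign-flip permutation tests, 63 in all. In 7 of them all 8 pools had the same order, which gives p = 0.0078, the smallest that 8 pools allow, and an adjusted p of 0.0703 over the 63 by exact permutation. One of the 7, Oprl1 against Cajal-Retzius-like nuclei, is against a count of 0. None passed 0.05 after adjustment; the design of this test could not reach it unless more neighbours separated.

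**Figure D1:**
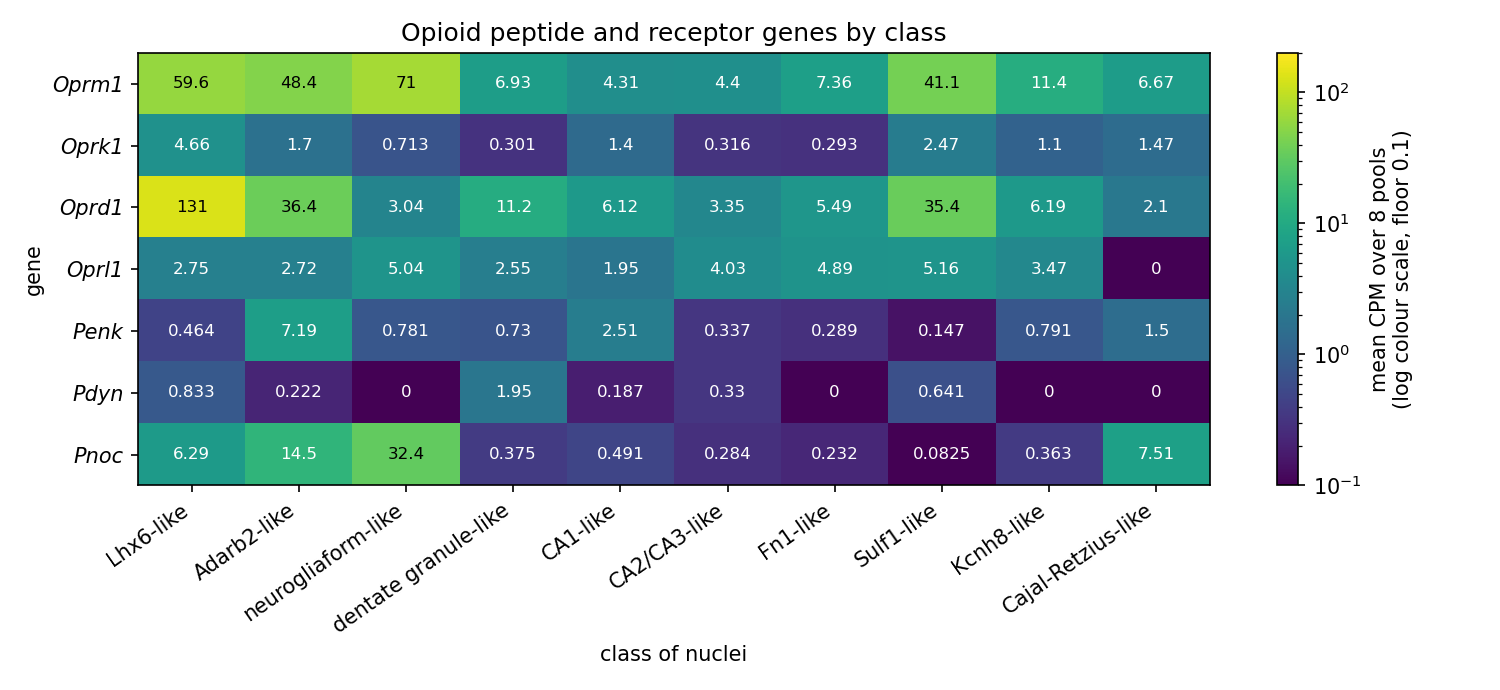
Mean CPM over 8 pools (colour and printed number) of the 7 genes, in rows, in the 10 neuronal classes, in columns. Oprd1 peaks in Lhx6-like nuclei at 131 CPM, Oprm1 in 3 interneuron classes and Sulf1-like nuclei between 41.1 and 71.0 CPM, and Pdyn nowhere passes 1.95 CPM.

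Oprd1, the delta receptor gene, lies at chr4:131838037-131871842 on the minus strand of mm39, and overlaps no other annotated gene. In Lhx6-like nuclei it stood at 135, 127, 131 and 109 CPM in Con-Veh, Con-PLX, Con-WT and Con-KO, and at 183, 105, 131 and 127 CPM in the matching stress pools. The lowest of these 8 values was above the highest in any other of the 10 classes, 75.2 CPM in Adarb2-like nuclei of Stress-PLX. Adarb2-like nuclei, which hold the Vip and Cnr1 interneurons, followed at 36.4 ± 17.4 CPM and Sulf1-like nuclei, deep-layer excitatory neurons, at 35.4 ± 12.8 CPM, which do not differ beyond their spread. In an edgeR quasi-likelihood fit over all genes with the pool as a block, Oprd1 was higher in Lhx6-like than in Adarb2-like nuclei by 2.02 ± 0.13 (log2, SE), with a Benjamini-Hochberg adjusted p of 4.37e-14, in 8 of 8 pools. Of all genes in that comparison, 32.1% passed. The edgeR fits of class against class were added after the data had been seen. They compare classes that were put in order by these same values. Dentate granule-like nuclei had 11.2 ± 2.88 CPM, Kcnh8-like 6.19 ± 2.10, CA1-like 6.12 ± 3.25, Fn1-like 5.49 ± 3.72 and CA2/CA3-like 3.35 ± 1.39 CPM. Neurogliaform-like nuclei, although inhibitory, had 3.04 ± 3.20 CPM, within the range of the excitatory classes. Oligodendrocyte-like nuclei, pooled and taken as background, stood at 2.90 CPM (1.253 to 5.72). Pooled, CA2/CA3-like nuclei at 2.76 CPM, neurogliaform-like at 4.12, CA1-like at 5.18 and Fn1-like at 5.40 CPM all lay within that interval. The steps from Lhx6-like to Adarb2-like, from Sulf1-like to dentate granule-like and from dentate granule-like to Kcnh8-like had the same order in 8 of 8 pools.

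Among Lhx6-like nuclei, Oprd1 split along the line between Pvalb and Sst cells. This class was made of 2 clusters, of which one (leading genes Btbd11 and Tll1, 1625 nuclei) had 45.3 ± 13.4 CPM of Pvalb and the other (Elfn1 and Reln, 1284 nuclei) 30.2 ± 2.82 CPM of Sst. Oprd1 stood at 167 ± 29.8 CPM in the Pvalb cluster and at 88.5 ± 15.3 CPM in the Sst cluster, with ranges of 133 to 226 and 68.6 to 107 CPM that did not overlap. It was higher in the Pvalb cluster in 8 of 8 pools. Two-sided exact sign-flip permutation gave an unadjusted p of 0.0078, the smallest that 8 pools allow. Adjusted over the 7 genes, this permutation p was 0.0547, which did not pass 0.05. The edgeR fit over all genes gave a log2 difference of 0.89 ± 0.095 (SE), with an adjusted p of 7.48e-10. In that fit, also added after the data had been seen, 28.5% of all genes passed. Oprm1 gave no such split, at 57.0 ± 25.1 and 62.8 ± 14.7 CPM, with a log2 difference of -0.11 ± 0.13 (SE) and an edgeR adjusted p of 0.630. Oprk1 lay mostly in the Sst cluster, with 53 UMIs there against 7, or 8.19 against 1.34 CPM. It had an unadjusted p of 0.0156 by the same exact permutation test, one of 7 genes compared (adjusted 0.0547), and too few UMIs for the edgeR fit. All 9 Pdyn UMIs of the class were in the Sst cluster as well, while Pnoc had 44 UMIs in the Pvalb cluster and 49 in the Sst cluster. These clusters were found without the 7 genes. With every nucleus thinned to 500 UMIs the Oprd1 log2 difference was 0.91, with an unadjusted p of 0.0234 by the exact permutation test.

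Oprm1, the mu receptor gene, lies at chr10:6708506-6988198 on the plus strand and spans 280 kb that overlap Ipcef1 on the other strand; whether counting used the strand is not given in the sources used here. Among the 10 classes it was highest in the 3 interneuron classes and in Sulf1-like nuclei. Neurogliaform-like nuclei had 71.0 ± 19.4 CPM, Lhx6-like 59.6 ± 17.1, Adarb2-like 48.4 ± 8.37 and Sulf1-like 41.1 ± 8.98 CPM, and these 4 neighbours overlapped. The edgeR fit of neurogliaform-like against Lhx6-like nuclei gave a log2 difference of 0.19 ± 0.14 (SE) and an adjusted p of 0.338, where 34.9% of all genes passed. Below them came a step that had the same order in 8 of 8 pools, to Kcnh8-like nuclei at 11.4 ± 5.50 CPM. Dentate granule-like nuclei had 6.93 ± 1.56 CPM, CA2/CA3-like 4.40 ± 1.93 and CA1-like 4.31 ± 1.45 CPM, the last 2 being the lowest of the 10. Pooled over all pools, CA1-like and CA2/CA3-like nuclei had 3.87 and 3.99 CPM. Oligodendrocyte-like nuclei, taken as background, had 3.99 CPM (exact interval 1.99 to 7.14) from 11 UMIs. The CA1-like and CA2/CA3-like values were not told apart from that level. Astrocyte-like nuclei at 11.3 CPM (7.95 to 15.7) stood higher than this background. Oligodendrocyte precursor-like nuclei had 9.40 CPM, with an interval of 6.65 to 12.9 CPM that overlapped it. A smaller excitatory class that was not present in every pool, Slc17a6 thalamic or midbrain-like, had 29.7 CPM of Oprm1 (22.6 to 38.3) from 59 UMIs.

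Oprk1, the kappa receptor gene (chr1:5658667-5676375, plus strand), was sparse. Its 60 UMIs in Lhx6-like nuclei gave 4.66 ± 3.56 CPM, and Sulf1-like nuclei followed at 2.47 CPM, Adarb2-like at 1.70, Cajal-Retzius-like at 1.47 and CA1-like at 1.4 CPM, all within their spread over pools. Every remaining class had 1.10 CPM or less. Oprl1, the nociceptin receptor gene (chr2:181356605-181363728, plus strand), was the most even of the receptors. Sulf1-like nuclei had 5.16 ± 3.97 CPM, neurogliaform-like 5.04, Fn1-like 4.89, CA2/CA3-like 4.03 and the others between 1.95 and 3.47 CPM, apart from Cajal-Retzius-like nuclei at 0. The 0 rests on a class of few UMIs and allows up to 6.12 CPM (3 counts), above CA1-like nuclei, so the order of that step, although the same in 8 of 8 pools, is no measured difference. No other neighbours kept 1 order in all pools, and the leading class was not fixed: neurogliaform-like nuclei led in 3 of 4 alternative settings. Oligodendrocyte-like nuclei, pooled and taken as background, had 0.725 CPM of Oprl1 (0.0879 to 2.62). Pooled CA1-like, Adarb2-like and dentate granule-like nuclei, at 1.91, 2.18 and 2.31 CPM, lay within that interval. The other classes with any Oprl1 UMIs lay above it. The part of low counts in this evenness was not tested.

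Pnoc, the nociceptin precursor gene (chr14:65638122-65663196, minus strand), was led by the inhibitory classes. In neurogliaform-like nuclei it stood at 25.8, 57.8, 22.4 and 35.7 CPM in Con-Veh, Con-PLX, Con-WT and Con-KO and at 23.5, 45.9, 26.2 and 21.6 CPM in the matching stress pools. Adarb2-like nuclei had 14.5 ± 6.88 CPM and Lhx6-like nuclei 6.29 ± 4.31 CPM. Pnoc was higher in neurogliaform-like than in Adarb2-like nuclei by 0.96 ± 0.24 (log2, SE; edgeR over all genes with pool as a block, adjusted p 0.00186), where 26% of all genes passed. This fit too was added after the data had been seen, on classes put in order by the same values. Cajal-Retzius-like nuclei had 7.51 ± 11 CPM, which rest on 4 UMIs, and the other 6 classes ran from 0.0825 to 0.491 CPM.

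**Figure D2:**
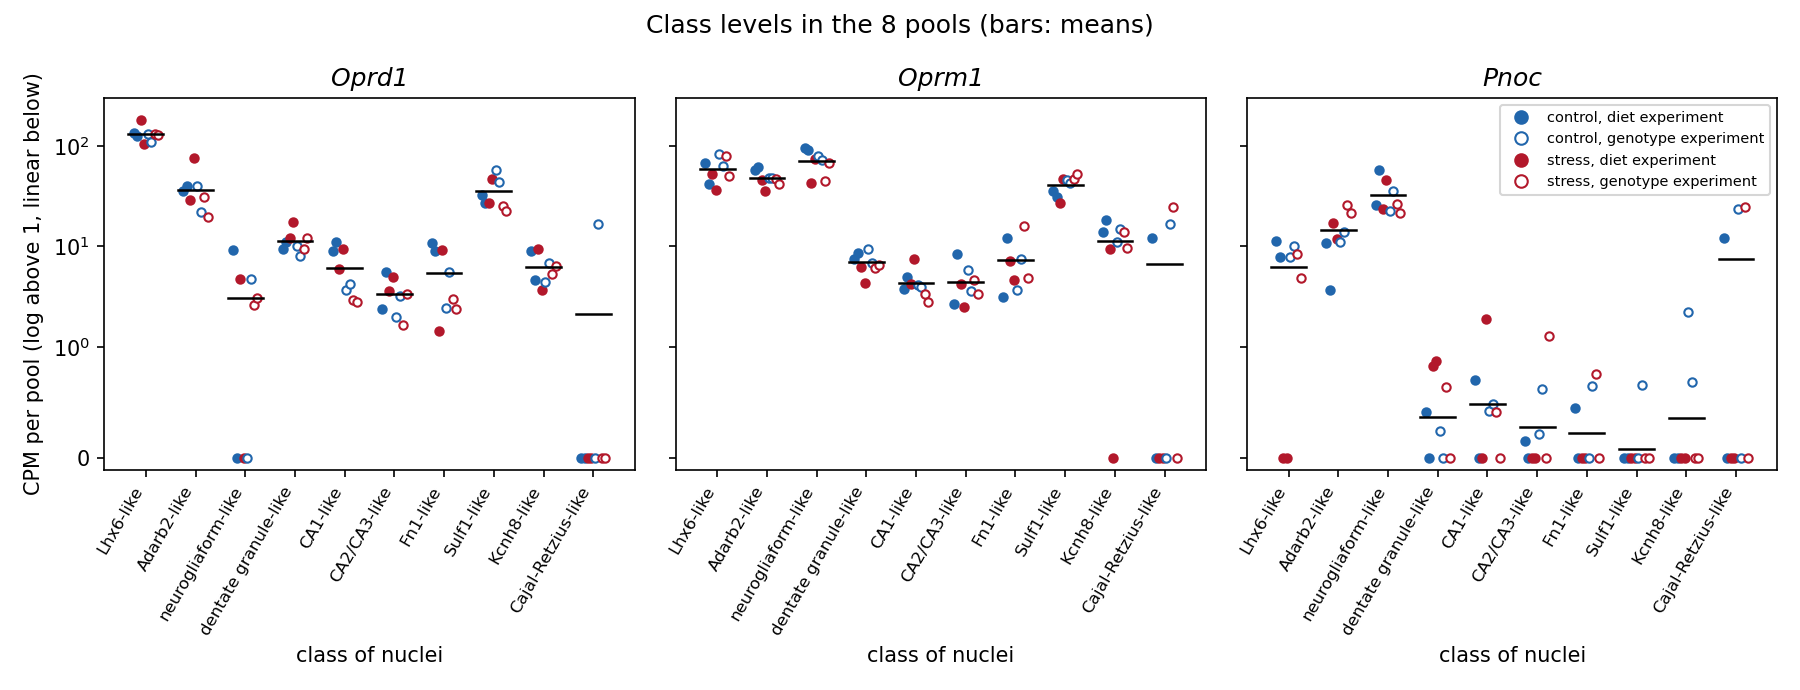
CPM of Oprd1, Oprm1 and Pnoc in each of the 8 pools (points, filled for the diet and open for the genotype experiment; control blue, stress red; bars are means) by class, on an axis that is logarithmic above 1. All 8 Oprd1 points of Lhx6-like nuclei lie above 100 CPM, and Pnoc stays below 3 CPM in dentate granule-like, CA1-like and CA2/CA3-like nuclei.

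Penk, the enkephalin precursor gene (chr4:4132722-4141856, minus strand, overlapping 2 long noncoding genes on the other strand), was low in all 10 classes. Adarb2-like nuclei had 7.19 ± 4.73 CPM, CA1-like 2.51 ± 1.55 CPM and Cajal-Retzius-like nuclei 1.50 CPM, and the others ran from 0.147 to 0.791 CPM. The step from Adarb2-like to CA1-like nuclei had the same order in 8 of 8 pools. Pdyn, the dynorphin precursor gene (chr2:129528469-129541945, minus strand), had 50 UMIs in dentate granule-like nuclei, at 1.95 ± 1.10 CPM, and 0.833 CPM in Lhx6-like nuclei, with dentate granule-like nuclei higher in 7 of 8 pools (exact permutation p = 0.0156, adjusted 0.123 over the 63 neighbours). It had 0 UMIs in neurogliaform-like, Fn1-like and Kcnh8-like nuclei, which allows up to 0.95, 0.279 and 0.558 CPM (3 counts), and 0 in Cajal-Retzius-like nuclei, which allows up to 6.12 CPM, above the leading class. When every nucleus was thinned to 500 UMIs, the dentate granule-like mean of Pdyn was 3.49 CPM, the only one of the 7 leading-class means to move by more than its SD over pools under that setting.

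The highest Penk lay outside the 10 classes. A group of 291 medium spiny-like nuclei, striatal in their markers (Drd1, Drd2 and Adora2a among them), had 69.5 CPM of Penk from 62 UMIs, with an exact Poisson interval of 53.3 to 89.1 CPM. Oprd1 stood there at 50.5 CPM, Oprm1 at 24.7, Pdyn at 11.2 and Oprk1 at 10.1 CPM, while Pnoc had 0 UMIs. These nuclei are not replicated: 272 of the 291 came from Stress-WT. Divided by gene span, although whether UMIs scale with span was not tested, Penk in medium spiny-like nuclei was at 7.61 CPM per kb, Oprd1 in Lhx6-like nuclei at 3.78, Pnoc in neurogliaform-like nuclei at 1.2 and Oprm1 in neurogliaform-like nuclei at 0.259 CPM per kb.

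Single nuclei held these transcripts at low rates. An Oprd1 UMI was found in 27% of Lhx6-like nuclei (exact Clopper-Pearson interval 25.4 to 28.7%), 8.06% of Sulf1-like and 7.86% of Adarb2-like nuclei. An Oprm1 UMI was found in 19.4% of neurogliaform-like, 15.3% of Lhx6-like, 14.3% of Adarb2-like and 9.92% of Sulf1-like nuclei. After each nucleus was thinned to 500 UMIs, the shares were 6.37% for Oprd1 in Lhx6-like nuclei and 4.45% for Oprm1 in neurogliaform-like nuclei. Oligodendrocyte-like nuclei, taken as the level of free RNA, had Oprm1 in 0.542%, Oprd1 in 0.345%, Oprl1 in 0.0986% and Penk and Pnoc in 0.0493% of nuclei, at a median of 865 UMIs, and Oprk1 and Pdyn in 0 of 2029, which allows up to 0.182% by the exact interval. Pdyn was found in 0.442% of dentate granule-like nuclei (0.324 to 0.590%), at a median of 1591 UMIs, which is low but above that bound. Both Oprm1 and Oprd1 had a UMI in 212 Lhx6-like nuclei, which is 47.5% of the nuclei with Oprm1, against 23.3% with Oprd1 among nuclei without Oprm1. Those with Oprm1 were also deeper, with a median of 6115.5 against 1830 UMIs, and the part of depth in this pairing was not tested.

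Stress was compared with control over the 4 pairs by edgeR with TMM, a low-count filter and the pair as a block. The p-values were adjusted over all genes of a class. This fit takes a common stress effect for all pairs, and whether the effect differed by diet or genotype was not tested. Of the 70 combinations of 7 genes and 10 classes, 16 passed the low-count filter, in 7 classes, and 0 of 16 were called at an adjusted p of 0.05. At an unadjusted p of 0.05, 5 of the 16 passed, 31.3% against 11.7% of all 61775 tests in the same 7 classes. DESeq2 also called 0 of 16, with 1 at an unadjusted p of 0.05. The smallest adjusted p by edgeR was 0.237. Of all genes, 0.064% were called in dentate granule-like, 0.691% in CA1-like, 0.537% in CA2/CA3-like, 0.195% in Lhx6-like, 0.16% in Adarb2-like, 0% in neurogliaform-like and 1.19% in Sulf1-like nuclei, so few genes of any kind passed. In simulated counts of Lhx6-like nuclei, 72% of 2-fold changes and 95% of 4-fold changes were called. Each share is over 100 changed genes and was not broken down by UMIs, so it is no measure of power for the 7 genes. The 54 combinations below the filter got no test there; Oprk1, Penk and Pdyn had none.

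**Figure D3:**
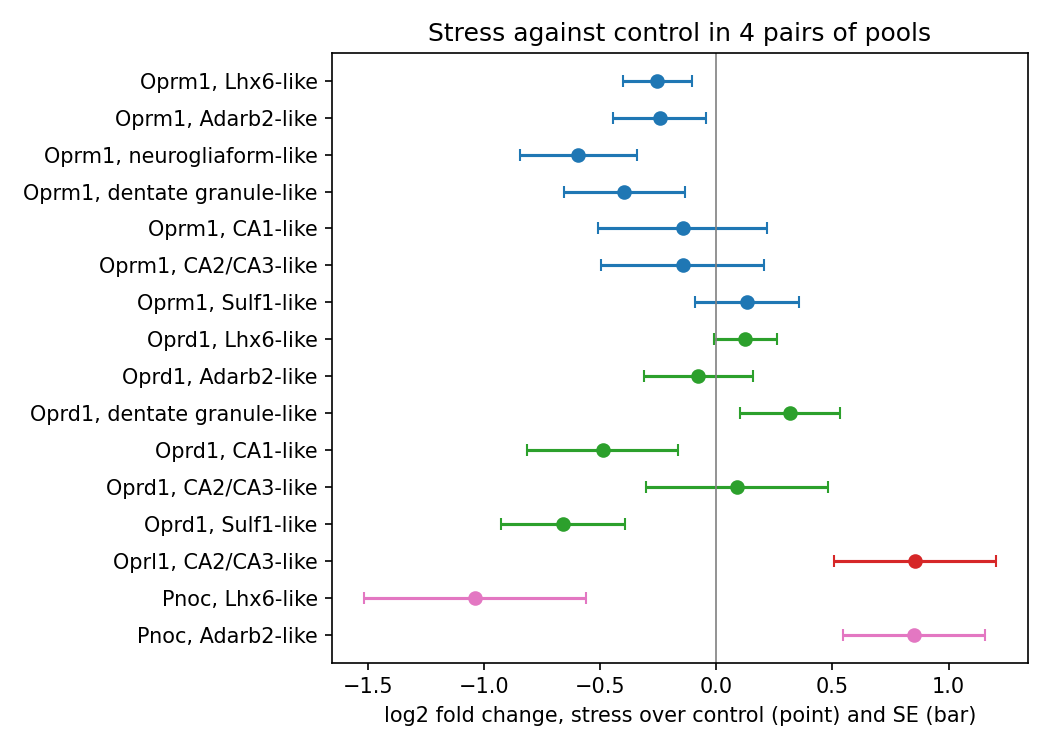
Log2 fold change of stress against control with its SE from the edgeR fit (points and bars) for the 16 tested combinations of gene and class. Of the 16, 10 lie below 0 and 6 above, and none passed the adjusted threshold.

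Oprm1 was the gene with the most one-sided values. In dentate granule-like nuclei it stood at 7.43, 8.64, 9.32 and 6.86 CPM in Con-Veh, Con-PLX, Con-WT and Con-KO, and at 6.24, 4.36, 6.10 and 6.45 CPM in the matching stress pools. In Adarb2-like nuclei it stood at 57.6, 62.2, 48.2 and 48.3 CPM in control and at 45.9, 35.6, 47.2 and 41.8 CPM in stress. In both classes every stress pool was below every control pool. Such separation held for 2 of the 16 combinations, against 4.3% of all genes tested in the 7 classes. Both are Oprm1 in the same pools, so they are not independent. The edgeR log2 fold changes were -0.40 ± 0.26 (SE, adjusted p 0.571) and -0.24 ± 0.20 (adjusted p 0.886), so neither passed. The dentate granule-like values rest on 36, 7, 38 and 45 UMIs in control and 15, 5, 19 and 17 in stress. Pooled, Oprm1 in that class stood at 7.11 CPM (exact interval 6.12 to 8.22), which overlaps the interval of oligodendrocyte-like nuclei (1.99 to 7.14 CPM), taken as background.

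In neurogliaform-like nuclei Oprm1 stood at 95.9, 90.9, 79.7 and 73.3 CPM in the control pools and at 42.3, 73.5, 44.5 and 67.9 CPM in the stress pools, with means of 84.9 ± 10.3 and 57.1 ± 16 CPM (SD, n = 4). It was lower in 4 of 4 pairs, but the groups overlapped by 1 pool, Stress-PLX, which just exceeded Con-KO. The log2 fold change was -0.59 ± 0.25 (edgeR, adjusted p 0.765). In Lhx6-like nuclei Oprm1 stood at 67.9, 42.2, 83.9 and 63.7 CPM in control and 52.6, 36.3, 79.5 and 50.4 CPM in stress, lower in every pair by less than the spread between pairs (log2 -0.25 ± 0.15, adjusted p 0.621). Lower values in 4 of 4 pairs were found for 5 of the 16 combinations, against 9.67% of all tests. They were these 4 classes of Oprm1 and Oprd1 in CA1-like nuclei. The 4 Oprm1 classes come from the same pools, so they are not independent draws to set against that share. Oprm1 was also lower in every pair in unnamed nuclei (1382 UMIs) and in oligodendrocyte precursor-like nuclei (38 UMIs). In the latter every stress pool was below every control pool. Astrocyte-like and oligodendrocyte-like nuclei were not lower in every pair. A shift shared by neurons and glia was not tested. Oprd1 in CA1-like nuclei was not told apart from the oligodendrocyte-like level. The direction was not general. In Sulf1-like nuclei Oprm1 was higher in 3 of 4 pairs, at 35.6, 31.1, 45.6 and 42.9 CPM in control and 26.8, 46.8, 46.6 and 53.1 CPM in stress (log2 0.13 ± 0.22, adjusted p 0.875). In CA1-like and CA2/CA3-like nuclei, where Oprm1 was not told apart from the oligodendrocyte-like level, its log2 fold change was -0.14 in both, with SEs of 0.36 and 0.35.

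Oprd1 in Lhx6-like nuclei, where it was highest, did not pass either, at 126 ± 11.4 CPM in control and 137 ± 33.1 CPM in stress (log2 0.13 ± 0.14, edgeR adjusted p 0.827). In Sulf1-like nuclei it stood at 32.3, 27.2, 58.2 and 44.2 CPM in control and at 26.8, 46.8, 25.1 and 22.6 CPM in stress. The PLX5622 pair went against the other 3, and the log2 fold change was -0.66 ± 0.27 (adjusted p 0.308). In CA1-like nuclei the pairs were 8.90 and 5.99, 11.1 and 9.43, 3.65 and 2.92, and 4.25 and 2.77 CPM (log2 -0.49 ± 0.33, edgeR adjusted p 0.503). All 4 pools of the diet experiment were above all 4 of the genotype experiment. The share of all genes that separated the experiments was not computed, so this is no result about Oprd1. Pooled, Oprd1 in that class lay within the background interval of oligodendrocyte-like nuclei. In dentate granule-like nuclei it was higher in 3 of 4 pairs (0.32 ± 0.22, adjusted p 0.581). Oprl1 passed the filter only in CA2/CA3-like nuclei, at 4.10, 4.19, 1.33 and 3.20 CPM in control and 8.40, 2.49, 3.84 and 4.66 CPM in stress. Its log2 fold change of 0.85 ± 0.35 had the smallest adjusted p of the 16, 0.237, and 3 of 4 pairs were higher.

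Pnoc values lay in opposite directions in 2 interneuron classes, and neither passed. In Adarb2-like nuclei it stood at 10.8, 3.66, 11 and 14 CPM in the control pools and at 17.2, 11.9, 25.7 and 21.4 CPM in the stress pools. Pnoc in the PLX5622 pair rests on few UMIs, as the class held 273217 UMIs of all genes in Con-PLX and 252534 in Stress-PLX. It was higher in 4 of 4 pairs, with means of 9.87 ± 4.39 and 19.0 ± 5.91 CPM (SD, n = 4) that overlap only through Stress-PLX; 10.8% of all tests in the 7 classes were higher in 4 of 4 pairs (log2 0.85 ± 0.31, edgeR adjusted p 0.480). In Lhx6-like nuclei it stood at 11.2, 7.91, 7.79 and 10.1 CPM in control, from 23, 3, 13 and 31 UMIs, and at 0, 0, 8.45 and 4.80 CPM in stress, from 0, 0, 15 and 8 UMIs. Both pools at 0 were of the diet experiment, and 0 UMIs at their depth allow up to 4.16 and 6.40 CPM (3 counts). The IL-1R1+/+ pair went the other way (log2 -1.04 ± 0.48, edgeR adjusted p 0.535). Neurogliaform-like nuclei, where Pnoc was highest, were below the filter. The difference between classes was not tested.

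**Figure D4:**
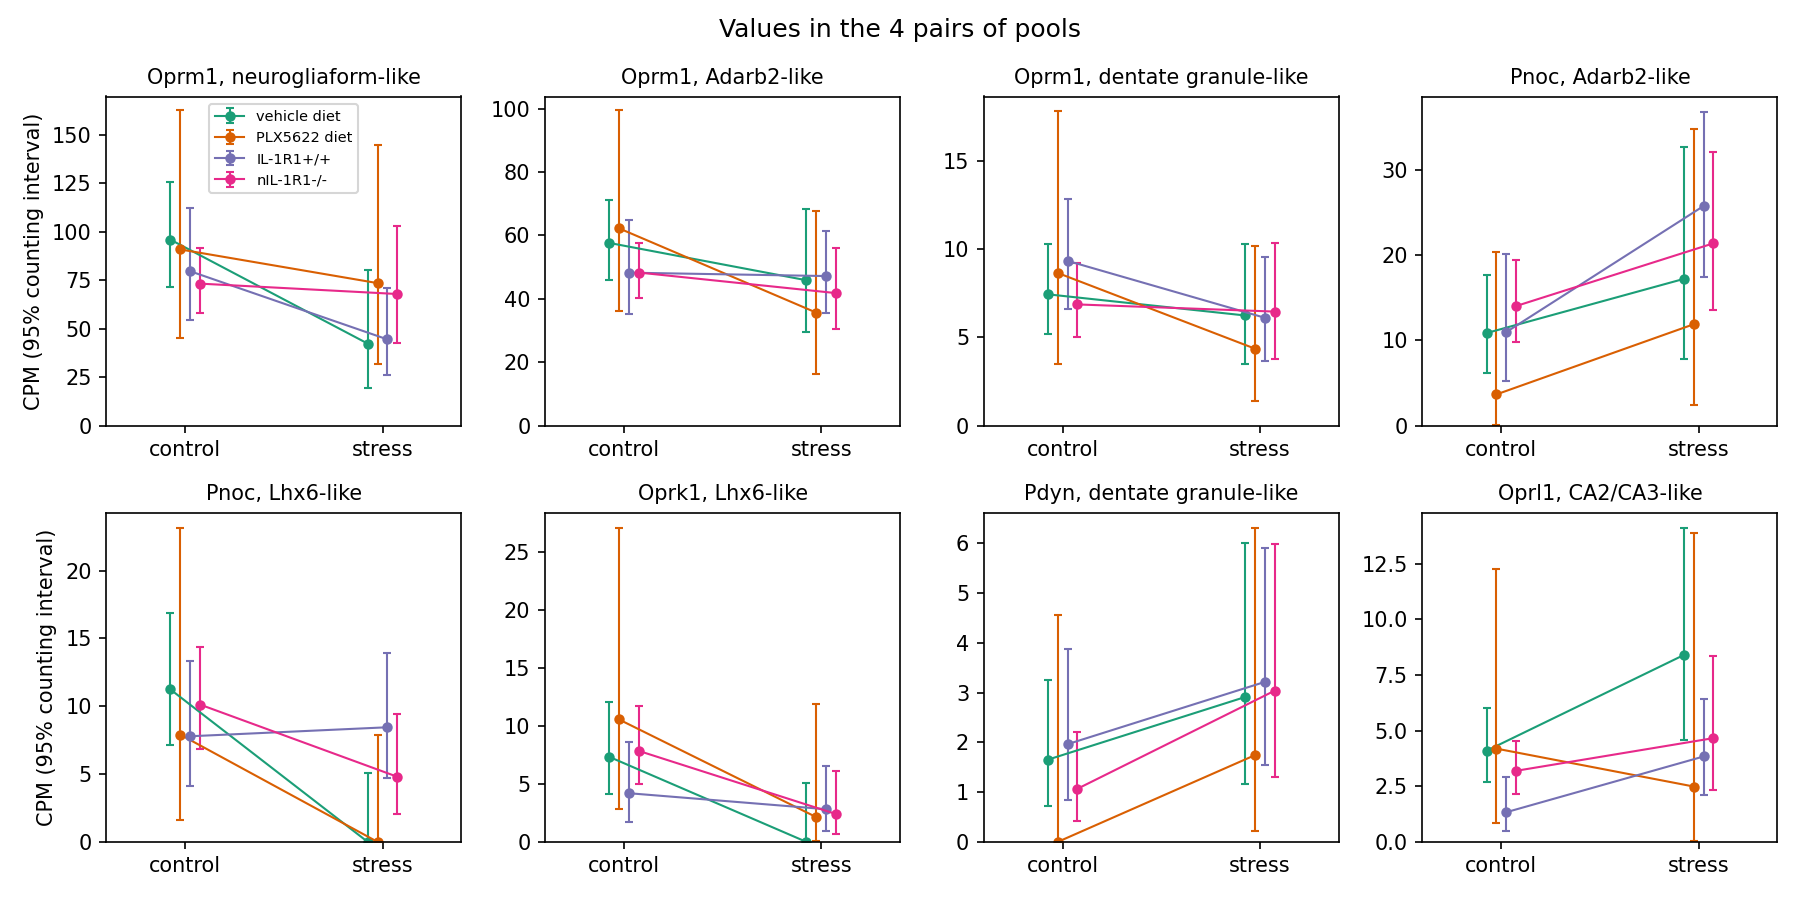
CPM in the control and stress pool of each pair (lines, coloured by diet or genotype) with exact Poisson intervals that cover counting error alone, for 8 combinations of gene and class. All 4 lines slope down for Oprm1 in neurogliaform-like, Adarb2-like and dentate granule-like nuclei and for Oprk1 in Lhx6-like nuclei, and all 4 slope up for Pnoc in Adarb2-like and Pdyn in dentate granule-like nuclei.

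Kappa receptor and dynorphin genes lay below the filter, and are given as counts. Oprk1 in Lhx6-like nuclei stood at 7.33, 10.5, 4.19 and 7.84 CPM in the control pools, from 15, 4, 7 and 24 UMIs, and at 0, 2.13, 2.82 and 2.40 CPM in the stress pools, from 0, 1, 5 and 4 UMIs. The 0 in Stress-Veh allows up to 4.16 CPM, close to Con-WT. Every stress pool was below every control pool, which 2.81% of the genes below the filter with at least 40 UMIs in that class showed. Without the low-count filter its log2 fold change was -1.69 ± 0.49 (edgeR, adjusted p 0.128), which did not pass. The Sst cluster of Lhx6-like nuclei held most of these UMIs, at 6.82 to 17.9 CPM from 45 UMIs in control and at 0 to 5.16 CPM from 8 UMIs in stress. Its share of the class was 49.9, 36.74, 54.3 and 50.9% in Con-Veh, Con-PLX, Con-WT and Con-KO. In the matching stress pools it was 37.0, 36.67, 47.6 and 43.2%, lower in every pair, though hardly so under PLX5622. The part of this share in the Oprk1 values of the class was not tested. Sst itself stood in the cluster at 27.3 to 32.1 CPM in control and 26.8 to 34.3 CPM in stress.

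Pdyn in dentate granule-like nuclei stood at 1.65, 0, 1.96 and 1.07 CPM in control, from 8, 0, 8 and 7 UMIs (0 UMIs allow up to 3.70 CPM in Con-PLX), and at 2.91, 1.74, 3.21 and 3.04 CPM in stress, from 7, 2, 10 and 8 UMIs. It was higher in 4 of 4 pairs, though Stress-PLX was below Con-WT, so the groups overlapped, and the PLX5622 pair rests on 0 against 2 UMIs. Of the genes below the filter with at least 40 UMIs in dentate granule-like nuclei, 6.13% were higher in 4 of 4 pairs. Without the filter its log2 fold change was 1.04 ± 0.46 (edgeR, adjusted p 0.588). Penk in Adarb2-like nuclei stood at 4.75, 3.66, 7.68 and 1.95 CPM in control and 3.82, 15.8, 7.72 and 12.1 CPM in stress (1.06 ± 0.48 without the filter, edgeR adjusted p 0.996). In CA1-like nuclei Penk was higher in 4 of 4 pairs, at 2.81 and 2.99, 1.23 and 5.66, 1.72 and 3.34, and 1.15 and 1.19 CPM in control and stress, so the last pair hardly differed. The PLX5622 pair rests on few UMIs, as the class held 814175 UMIs of all genes in Con-PLX and 530284 in Stress-PLX. Of the genes below the filter with at least 40 UMIs in CA1-like nuclei, 6.96% were higher in 4 of 4 pairs.

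Over all nuclei of a pool, Penk showed what a few nuclei can do to a pooled value. It stood at 1.27, 0.392, 1.27 and 0.964 CPM in Con-Veh, Con-PLX, Con-WT and Con-KO and at 1.254, 1.46, 3.52 and 1.47 CPM in the matching stress pools. Of the 99 Penk UMIs in Stress-WT, 52 were in medium spiny-like nuclei, and without those nuclei the pool stood at 1.72 CPM and the log2 ratio of its pair at 0.44 in place of 1.47. Pdyn in whole pools was higher in 4 of 4 pairs, with and without these nuclei, at 0.261 to 0.517 CPM in control and 0.398 to 0.924 CPM in stress. It rests on 2 to 26 UMIs a pool, and the PLX5622 pair, with 2 against 3 UMIs, has no determined direction. The share of all genes higher in 4 of 4 pairs over whole pools was not computed. At this level fewer cells of a type and less RNA per cell cannot be told apart. Oprd1 had log2 ratios of 0.27, 0.19, 0.64 and 0.32 over whole pools in the order vehicle, PLX5622, IL-1R1+/+ and nIL-1R1-/-. Oprm1 had -0.40, -0.57, -0.32 and 0.01. Unnamed nuclei are part of these whole-pool values, including a cluster mostly of Con-WT that held Oprm1.

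**Figure D5:**
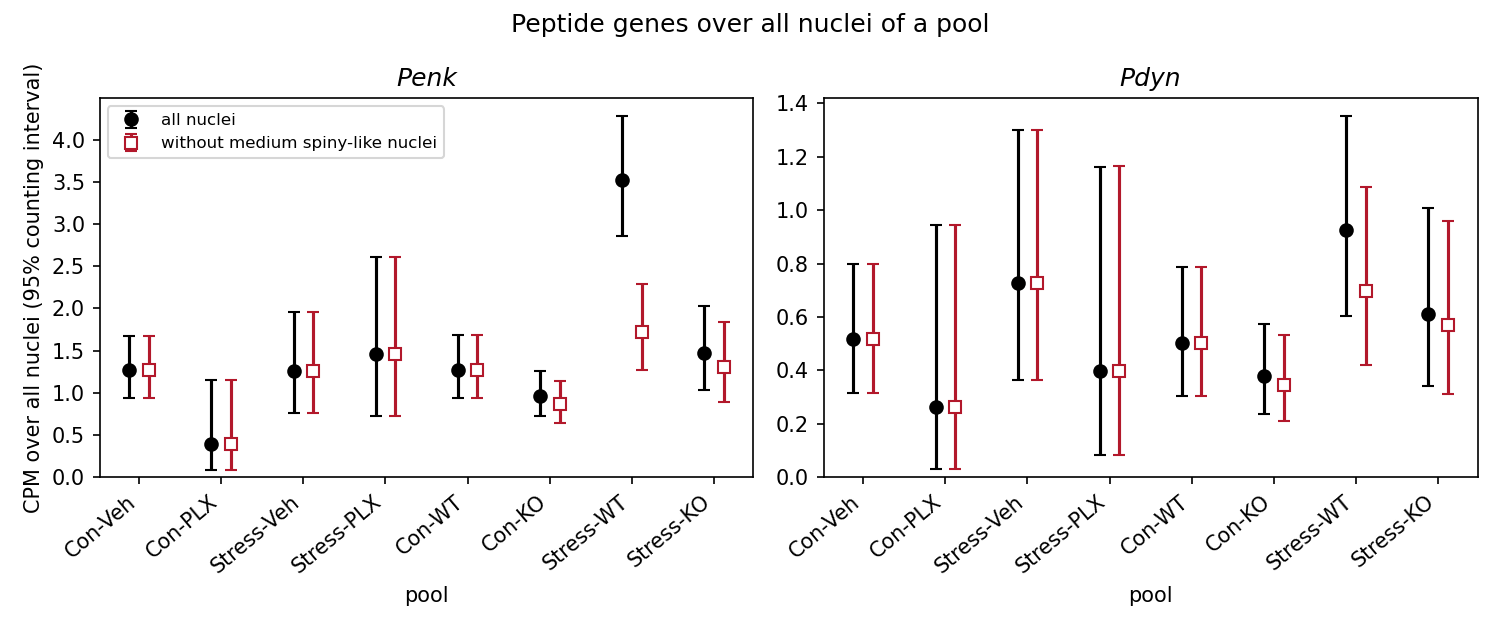
CPM of Penk and Pdyn over all nuclei of each pool with exact Poisson intervals, with (black circles) and without (red squares) medium spiny-like nuclei. Penk in Stress-WT is at 3.52 CPM with them and 1.72 CPM without, and the other 7 pools stay between 0.392 and 1.47 CPM.

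The machinery around these receptors was followed with 34 further genes for peptide processing and breakdown, Gi/o subunits, RGS proteins, receptor kinases and arrestins, GIRK channels and adenylyl cyclases. Pcsk2, a convertase that cuts precursors at basic pairs, stood at 959 ± 131 CPM in CA2/CA3-like and 938 ± 111 CPM in Kcnh8-like nuclei. Cpe, which trims the basic residues left behind, stood at 656 ± 73.5 CPM in Sulf1-like and 647 ± 77.3 CPM in CA2/CA3-like nuclei, and neither pair differed beyond its spread. Kcnj3 and Kcnj6, channel subunits opened by Gi/o, had their highest means in dentate granule-like nuclei, at 566 ± 163 and 972 ± 81.3 CPM, of which that of Kcnj3 overlapped CA1-like nuclei at 416 ± 94.1 CPM. Grk3, a kinase that desensitises receptors, had its highest mean in Lhx6-like nuclei, the leading class of Oprd1, at 357 ± 67.0 CPM, within the spread of neurogliaform-like nuclei at 276 ± 50.4 CPM. Pomc, the precursor of beta-endorphin, was near 0 in every class, with at most 0.577 CPM.

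Between 7 and 30 of the 34 genes were tested in each of the 10 classes, and 0 were called in either direction. The 3 classes in which none of the 7 opioid genes was tested had 0% (Cajal-Retzius-like), 0.0693% (Fn1-like) and 0.123% (Kcnh8-like) of all genes called. At an unadjusted p of 0.05, 39 of these tests passed (15.2%, against 11.3% of all tests in the 10 classes), with 20 lower and 19 higher under stress. The smallest adjusted p values by edgeR were 0.0587 for Adcy8 in Sulf1-like nuclei (log2 -0.64 ± 0.17) and 0.0620 for Kcnj3 in CA2/CA3-like nuclei (-0.50 ± 0.12). Kcnj3 had log2 fold changes of -0.41 in dentate granule-like, -0.43 in CA1-like, -0.52 in Fn1-like and -0.40 in Sulf1-like nuclei, each at an unadjusted p under 0.05. Without the low-count filter Kcnj3 was called in dentate granule-like, CA1-like, CA2/CA3-like and Fn1-like nuclei, with adjusted p of 0.0184, 0.0398, 0.0197 and 0.0430 by edgeR; without the filter 0.382% of all tests in the 10 classes were called.

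Genes with the most similar class pattern were sought among 15502 genes by Pearson's r of log2(mean CPM + 1) over the 10 classes, as a description in which all points share the same 8 pools. Oprm1 was closest to Lhfpl3 (0.96), Sesn3 (0.95) and Hsd17b12 (0.94). Oprd1 was closest to 2610028E06Rik (0.96), Coa6 and Gm26885 (both 0.92), Oprk1 to Elapor2 (0.94), Ecpas (0.93) and Zdhhc20 (0.89), and Oprl1 to Prps1 and Dpcd (both 0.96) and Tnpo2 (0.95). Among the peptides, Pnoc was closest to Hcn3, Gpr149 and Mx2 (all 0.96), Penk to Nudt18 and Cyb5r3 (both 0.84) and Adam12 (0.83), and Pdyn to Kcnk1 (0.90), Stard8 (0.89) and Dnah5 (0.87). As the highest of 15502 genes over only 10 points, these r are high partly through the search itself. The r that unrelated genes would reach was not computed. The values for Penk, Pdyn and Oprk1 rest on few UMIs. Some matched genes were as sparse: 2610028E06Rik, Coa6 and Gm26885 had 233, 309 and 361 UMIs over all nuclei, and Mx2 had 213.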

How the data were processed

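Single-nuclei RNA was measured in 8 pools of 3 mice, barcoded together by split-pool rounds and deposited as 4 sublibraries, each holding nuclei of every pool. The paper's supplement describes 8 sublibraries, and the difference is not explained in the sources used here. The authors deposited raw UMI counts for each gene in each nucleus, which came from the Parse software; the submitters' processing notes name mm39 and Seurat 4.1.1. Pools were taken from the sample names in the tables of nuclei. The release of the annotation is not given in the sources used here. Counting intervals cover counting error only.

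Nuclei with over 20% mitochondrial UMIs were left out. The 7 genes, 34 pathway genes and mitochondrial genes were kept out of the 2000 variable genes; 30 principal components, 15 neighbours and Leiden at resolution 1.0 (scanpy 1.11.5, igraph 0.11.9, Python 3.11.15) gave the clusters. A cluster was named if at least 3 markers of a class reached 0.2 of the highest cluster's CPM, with a class score of at least 0.45 and 1.25 times the second. The lowest score was set after the clusters had been seen and keeps out, among others, 2966 nuclei that score as CA2/CA3 (0.43). Scrublet scores were used only to leave out the top 6% of each pool as an alternative. UMIs were summed per class and pool; genes were tested with edgeR 4.0.16 (TMM, filterByExpr, quasi-likelihood, R 4.3.3) with pair as a block and Benjamini-Hochberg adjustment over all genes of a class, with DESeq2 1.42.0 as an alternative. Pairs come from the shared diet or genotype; deviations of paired pools correlated with r from 0.05 to 0.25, except in Cajal-Retzius-like nuclei (-0.02 to 0.03). Levels are means of CPM over pools, and neighbouring classes were compared on log2(CPM + 1) (scipy 1.17.1, numpy 2.4.6, pandas 2.3.3). The fits were tested on simulated counts. Sequences were read from the mm39 reference through its annotation. The genes named are the 7, the pathway list and the 3 closest genes by class pattern with at least 200 UMIs. The 7 genes and all lists were chosen with earlier results of these data known.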

Additional observations from a re-analysis of the deposited data

Results flagged for a closer look

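Over 56 groups of 4 pools, 3 held a pool far from the other 3 by Dixon's test, and chance gives about 1 in 20 groups. Oprl1 in Sulf1-like nuclei was at 0 CPM in Con-PLX, where the nearest control pool had 4.62 CPM, but 0 UMIs there allow up to 11.7 CPM (3 counts), so this is no measured difference. Oprm1 in dentate granule-like nuclei was at 4.36 CPM in Stress-PLX, where the nearest stress pool had 6.10 CPM. Both pools are shallow. Penk over all nuclei was at 3.52 CPM in Stress-WT, where the nearest stress pool had 1.47 CPM and most medium spiny-like nuclei lay. Among 21 combinations of gene and class, 1 moved in opposite ways in the experiments. Oprm1 in CA1-like nuclei was higher under stress in both pairs of the diet experiment (mean log2 ratio 0.33). It was lower in both of the genotype experiment (-0.31), a difference of 0.64 that was not tested. The pairs rest on 7 against 16, 4 against 4, 8 against 19 and 7 against 24 UMIs in stress and control. Every pair's counting interval spans 0, and the class was not told apart from the oligodendrocyte-like level. How often unrelated values would split so was not computed.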

How the results depend on the processing

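No opioid gene that could be tested was called by stress under any of the 11 alternatives; only 2 combinations were tested after thinning to 500 UMIs and 11 and 12 without replicates 3 and 4. Among the alternatives were no replicate block (0 called; pairing by diet or genotype), DESeq2, RLE size factors, no low-count filter and leaving out each pair. The log2 fold changes kept their sign in 144 of 149 comparisons. The sign turned for Oprm1 in CA1-like nuclei at Leiden resolution 2.0 (0.239) and for Oprd1 in Adarb2-like nuclei with no replicate block (0.0240). Leaving out 1 pair turned it for Oprd1 in CA2/CA3-like nuclei (-0.0929 to 0.133, negative without replicate 1), Oprd1 in Adarb2-like nuclei (-0.251 to 0.0294, positive without replicate 3) and Oprm1 in Sulf1-like nuclei (-0.0101 to 0.269, negative without replicate 4). Pathway genes called numbered 0 as reported, 4 without the low-count filter, 1 without the top 6% of doublet scores (Kcnj3 in CA2/CA3-like nuclei) and 0 to 1 with a pair left out, the 1 being Adcy8 in Sulf1-like nuclei without the PLX5622 pair; the cause was not tested. No neighbouring classes passed after adjustment in any of 4 alternatives, and Oprd1 stayed higher in the Pvalb than the Sst cluster in 4 of 4. Depth limits Oprk1, Penk and Pdyn, with 118 to 370 UMIs over all nuclei.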

Other observations

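Opioid genes were also found in unnamed clusters. A cluster of 1923 nuclei, 1546 of them from Con-WT, held Oprm1 at 47.7 CPM and Oprk1 at 7.67 CPM, beside Gad2 at 90.9 and Slc17a6 at 50.8 CPM. A cluster of 775 nuclei, with a median of 11128 UMIs, held Oprd1 at 37.5 CPM beside Gad1 at 88.7 and Slc17a7 at 64.3 CPM. Oprd1 also stood at 37.5 CPM in a cluster of 1536 nuclei with Slc17a7 at 55.2 CPM, and Oprk1 at 5.48 CPM in one of 2277 nuclei with Slc17a7 at 94.4 CPM. The first of these is mostly of 1 pool. Its values enter no comparison of classes or of stress within a class, but they are part of the whole-pool values. The mixture of inhibitory and excitatory markers in that cluster was not resolved.

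In dentate granule-like nuclei, Il1r1 stood at 84.6 and 88.9 CPM in Con-Veh and Con-PLX and at 71.5 and 57.5 CPM in the matching stress pools. Glial nuclei also held receptor UMIs. Astrocyte-like nuclei had Oprm1 at 11.3 CPM and Oprd1 at 11 CPM from 36 and 35 UMIs, with 0 Penk UMIs, which allows up to 0.945 CPM (3 counts). Oligodendrocyte precursor-like nuclei had Oprm1 at 9.40, Oprd1 at 11.9 and Oprl1 at 5.19 CPM from 38, 48 and 21 UMIs, with exact intervals of 6.65 to 12.9, 8.75 to 15.7 and 3.22 to 7.94 CPM. In dentate granule-like nuclei, pooled the same way, Oprm1 stood at 7.11 and Oprd1 at 10.1 CPM. The order of these classes was not tested.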
